A study of Homo sapiens with 12 samples.

Results

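Long intergenic non-coding RNAs (lincRNAs) that carry no gene annotation were compared between DMAG-treated and control cells. The members were the transcripts typed as lincRNA in the authors' table of lncRNAs assembled without an annotated gene, 1082 of its 5540 transcripts. They belonged to 771 of the 4602 loci of that table, and 0 of these loci also held a transcript of another type. A locus (XLOC) is the assembly's group of overlapping transcripts (LNC), and none of the transcripts carried a gene symbol. Positions and sequences of the loci were not used here, so that their intergenic type is the authors' and XLOC numbers say nothing certain about distance on the genome.

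Cells labelled HEL, a human erythroleukaemia line, were given DMAG, a glucoside of a dimethylated ellagic acid from the burnet Sanguisorba officinalis, at 40 µg/ml for 3 days. Control cells (CTL) have no dose or day on record, and a vehicle is neither named nor denied for them. RNA depleted of ribosomal RNA was sequenced from 3 DMAG and 3 CTL samples. Levels are FPKM, that is fragments relative to the length of the transcript and the total of the library, and the depth behind them is unknown. No label ties the samples to separate cultures. The p-values therefore measure how far these samples spread, which may be technical.

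LincRNAs are transcribed from the stretches between protein-coding genes, are mostly low in level, and are often restricted to few cell types. Some act in the nucleus on chromatin or on neighbouring genes, and others bind proteins or small RNAs in the cytoplasm, while many have no known role. In blood cells, several annotated lincRNAs are known to take part in erythroid and myeloid maturation. An assembler joins reads into transcripts and then divides the reads of a locus among its overlapping transcripts, so transcripts of 1 locus share their evidence.

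The label HEL was checked against lineage genes. Of 11 erythroid and megakaryocyte genes, 9 were under 1 FPKM in all 6 libraries. The summed level of the 11 was 0.569 to 1370 FPKM in DMAG libraries and 0.554 to 0.819 FPKM in CTL libraries, the highest being the 1367 FPKM of HBB (beta-globin) in DMAG library 3. Of 6 granulocyte and monocyte genes, which summed to 1938 to 2102 FPKM with DMAG and 2432 to 2568 FPKM in CTL, DMAG libraries had 3 higher and 3 lower (limma with Benjamini-Hochberg adjustment, threshold 0.05). Over all 10394 mRNA genes tested, 22.4% were higher and 26.1% lower. MPO, the peroxidase of neutrophil granules, averaged 815 ± 82.9 FPKM with DMAG and 1089 ± 29.1 FPKM in CTL (SD, n = 3 each). The 4 T and B cell genes stayed under 1 FPKM in every library. The markers therefore go against the erythroid label, and the cells are called here by their group names.

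As a whole, lincRNA transcripts had far more signal in DMAG libraries. Their FPKM summed to 10384, 13541 and 12465.5 in DMAG libraries 1 to 3, against 1168, 1294 and 1160.4 in CTL libraries 1 to 3. The groups did not overlap, and the DMAG mean was 10.0 times the CTL mean, a difference of 3.32 on the log2 scale. The exact two-sided permutation test gave p = 0.1, which is the smallest that 3 against 3 libraries allow. LincRNAs held 84.4 ± 3.50% of the summed FPKM of unannotated lncRNAs with DMAG and 26.3 ± 1.88% in CTL (SD, n = 3 each).

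Most of that signal came from few loci. The 5 loci of highest mean summed to 8470, 11594 and 10596 FPKM with DMAG, against 255, 383 and 236 FPKM in CTL, 35.0 times as much. Their ranking used a mean that includes the DMAG values, so the choice itself favours loci that rose. Without these 5 loci the lincRNA sum was 1913, 1947 and 1869 FPKM with DMAG, against 912, 911 and 924 FPKM in CTL. The rest was thus 2.09 times as high with DMAG, again without overlap of the groups (exact permutation p = 0.1). Without the 6 highest loci it was 1595, 1458 and 1488 FPKM with DMAG, against 888, 889 and 908 FPKM in CTL, 1.69 times as high. Whether the highest loci hold ribosomal or mitochondrial sequence left in the libraries was not tested. In DMAG libraries 13, 8 and 9 loci made up 90% of the lincRNA sum, whereas CTL libraries took 227, 202 and 236 loci.

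The other types of the same table had lower sums with DMAG. Intronic lncRNAs summed to 2134 ± 417 FPKM with DMAG and 3262 ± 277 FPKM in CTL (SD, n = 3 each), with every DMAG library below every CTL library. Antisense lncRNAs summed to 86.4 ± 7.63 FPKM with DMAG and 126 ± 13.1 FPKM in CTL. The lincRNA sum was 4.77, 7.98 and 4.93 times the intronic sum of the same library with DMAG, against 0.331, 0.395 and 0.390 times in CTL, a difference of 3.95 on the log2 scale (exact two-sided permutation p = 0.1). The mRNA table summed to 330245 ± 2380 FPKM with DMAG and 354252 ± 4715 FPKM in CTL, so that the lincRNA sum came to 3.67 ± 0.463% of the mRNA sum with DMAG and 0.341 ± 0.0187% in CTL.

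**Figure D1:**
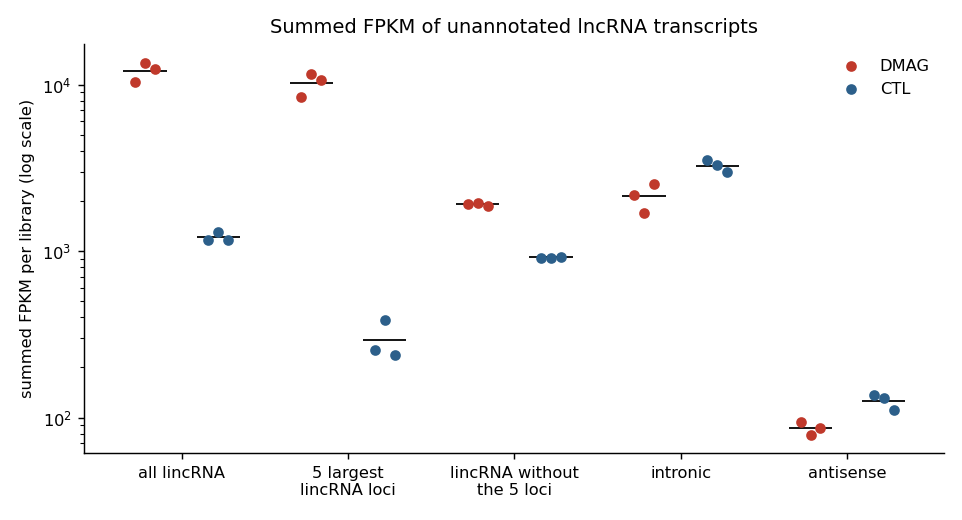
Summed FPKM per library (log scale) for all lincRNA transcripts, the 5 largest lincRNA loci, the remaining lincRNA loci, and the intronic and antisense types. Each point is a library, with DMAG left of CTL in each pair; the DMAG points lie above the CTL points for all 3 lincRNA sums and below them for the intronic and antisense sums.

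The number of lincRNA transcripts seen differed little. At 0.1 FPKM or more, 834, 755 and 808 transcripts were listed in DMAG libraries, against 733, 727 and 747 in CTL libraries (exact two-sided permutation p = 0.1, the smallest possible). Above 0 the groups overlapped, with 884, 814 and 857 transcripts in DMAG libraries and 797, 821 and 818 in CTL libraries (exact p = 0.3). The gap widened with level. At 10 FPKM or more, 62, 64 and 60 transcripts were listed with DMAG, against 19, 21 and 16 in CTL.

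Tested transcript by transcript, lincRNAs that differed were nearly all higher with DMAG. Of 1082 transcripts, 1016 reached a mean of 0.1 FPKM and were tested with limma on log2(FPKM + 0.1), a scale that understates the change of low transcripts. With adjustment over the whole table, 76 rose, 5 fell and 935 missed the threshold of 0.05. Over all 5307 transcripts tested in the table, 1.47% were called higher and 0.66% lower. At an unadjusted p under 0.05 there were 291 lincRNA transcripts. The median log2 change was 0.45 over lincRNA transcripts and -0.44 over all transcripts of the table. With the libraries scaled to the same median over the whole table, 105 lincRNA transcripts were higher and 3 lower. Most transcripts of the table were intronic and lower with DMAG, so this scaling moved every change upward, the lincRNA median to 0.88. More higher and fewer lower calls follow from that shift, here and wherever this scaling is used below.

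The groups did not overlap for a larger share than was called. In 260 lincRNA transcripts every DMAG library lay above every CTL library, and in 79 the reverse held. That is 25.6% and 7.78% of the lincRNA transcripts tested, against 6.6% and 21.6% of all transcripts tested. Among 4132 intronic transcripts tested, 1 was called higher and 30 lower, with a median log2 change of -0.57. For 159 antisense transcripts, 1 was called higher and 0 lower, with 24 at an unadjusted p under 0.05.

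Fitted as locus sums, lincRNAs gave more calls from fewer units. In 668 loci the sum is that of 1 transcript, so that its values are unchanged and only the fit differs. Of 771 lincRNA loci, 713 were tested, and 101 were higher, 10 lower and 602 not passed (limma, adjusted p under 0.05 over all locus sums). Over all 4467 locus sums, 2.48% were higher and 4.28% lower. LincRNA loci had a median log2 change of 0.44, and all locus sums one of -0.47. In 209 lincRNA loci every DMAG library was above every CTL library, 29.3% of those tested against 6.47% of all locus sums. In 67 the CTL libraries were above, 9.40% against 24.9% of all. After scaling to the same median, 144 lincRNA loci were higher and 3 lower.

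The share of loci called differed with level. Over the 6 libraries the median lincRNA locus had a mean of 0.403 FPKM, 159 loci reached 1 FPKM and 27 reached 10 FPKM. Of 394 tested loci with a mean between 0.1 and 0.5 FPKM, 16 were higher and 4 lower. Of 160 between 0.5 and 1 FPKM, 28 were higher and 5 lower, and of 111 between 1 and 5 FPKM, 35 were higher and 1 lower. Of 48 loci at 5 FPKM or more, 22 were higher and 0 lower. For all locus sums of the table, at any level, 2.48% were higher and 4.28% lower. The classes hold lincRNA loci only, so they do not show whether other types gain calls with level. Median log2 changes were 0.35 in the low class and 0.88 in the high class. The median spread between libraries of a group, as a pooled SD on the log2 scale, was 0.88 in the low class and 0.30 in the high class. These classes rest on means that include the DMAG values, so a rise by itself moves a locus up.

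**Figure D2:**
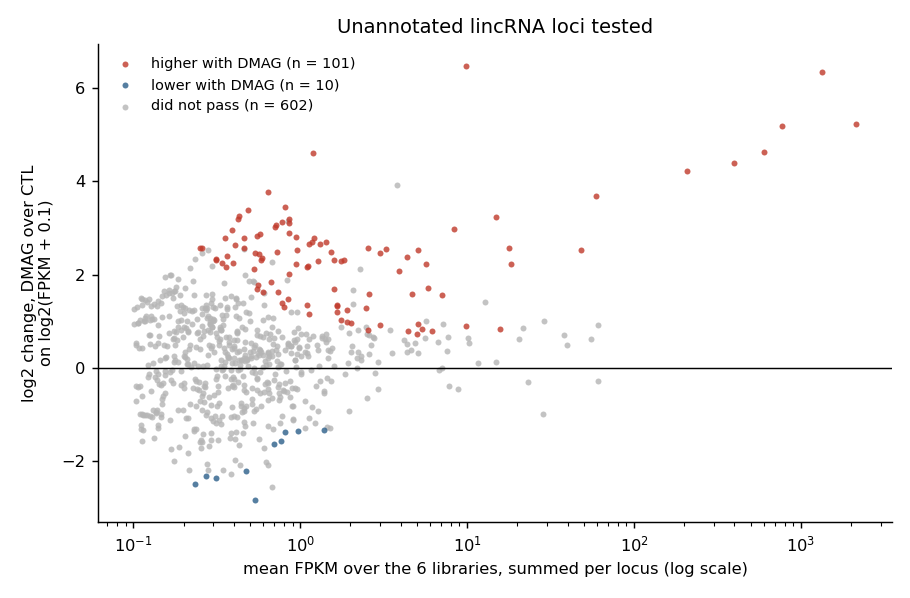
Log2 change (DMAG over CTL, on log2(FPKM + 0.1)) against mean FPKM over the 6 libraries (log scale) for the 713 lincRNA loci tested. Each point is a locus, coloured by its limma call: 101 higher, 10 lower and 602 not passed, with the loci of highest mean at the upper right.

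Of the 8 loci of highest mean, 6 rose with DMAG and 2 did not pass. The ranking used a mean that includes the DMAG values, so a rise by itself moves a locus up and the count is partly set by the choice. The highest was XLOC_000218, a locus of 24 transcripts. It had 3477, 4594 and 4477 FPKM with DMAG, against 98.0, 143 and 97.8 FPKM in CTL. It was 37.0 times as high with DMAG, a log2 change of 5.22 ± 0.62 (SE; limma adjusted p = 0.00032). XLOC_071240, with 4 transcripts, had 1882, 3517 and 2479 FPKM with DMAG, against 16.5, 104 and 17.4 FPKM in CTL. CTL library 2 stood above the other two, and the log2 change was 6.35 ± 0.67 (limma adjusted p = 0.00014).

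The other 4 abundant loci that rose carry XLOC numbers near that of XLOC_000218. XLOC_000121 (20 transcripts) had 1150, 1548 and 1793 FPKM with DMAG, against 26.2, 77.8 and 32.6 FPKM in CTL, 32.9 times as much. XLOC_000226 (19 transcripts) had 1194, 1140 and 1136 FPKM with DMAG, against 74.6, 25.3 and 53.6 FPKM in CTL, 22.6 times as much. Relative to the group mean, the DMAG libraries of XLOC_000226 lay closer together than its CTL libraries (SD 32.5 FPKM at a mean of 1157, against 24.8 FPKM at 51.2). XLOC_000227 (6 transcripts) had 768, 794 and 712 FPKM with DMAG, against 39.9, 33.3 and 34.9 FPKM in CTL, 21.0 times as much. XLOC_000125 (12 transcripts) had 319, 490 and 381 FPKM with DMAG, against 24.7, 22.4 and 16.3 FPKM in CTL, 18.8 times as much. Their log2 changes were 4.22 to 5.18, with limma adjusted p between 1.2e-05 and 0.0001, and no group overlapped.

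XLOC_048607 had 83.8, 78.1 and 72.3 FPKM with DMAG, against 53.1, 52.5 and 24.3 FPKM in CTL. Its groups did not overlap, but the log2 change of 0.93 ± 0.31 missed the threshold (limma adjusted p = 0.090), which it passed with libraries scaled to the same median (0.0249). XLOC_048805 had 51.2, 67.8 and 47.2 FPKM with DMAG, against 52.6, 77.2 and 70.8 FPKM in CTL. Its groups overlapped (log2 change -0.27 ± 0.27, limma adjusted p = 0.55).

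**Figure D3:**
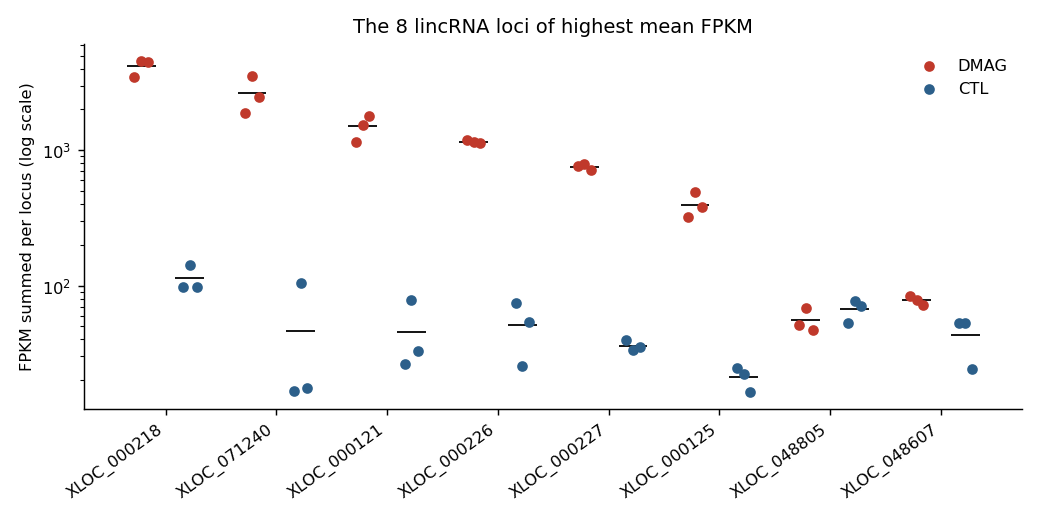
FPKM summed per locus (log scale) in each library for the 8 lincRNA loci of highest mean. Each point is a library, with DMAG left of CTL; in 6 loci the DMAG points lie more than 10 times above the CTL mean, in XLOC_048607 the groups are close but apart, and in XLOC_048805 they overlap.

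By size of change, 2 loci of lower level stood among the 8 largest rises. XLOC_072212, a locus of 1 transcript (LNC_003464), had 30.2, 25.6 and 3.15 FPKM with DMAG, against 0.258 FPKM in CTL library 3 and a listed 0 in the other CTL libraries. Its log2 change was 6.48 ± 0.73 (limma adjusted p = 0.00022), with DMAG library 3 well below the other DMAG libraries. XLOC_070239, also of 1 transcript (LNC_003356), had 2.36, 2.91 and 1.87 FPKM with DMAG and was listed at 0 in the 3 CTL libraries. Its log2 change was 4.61 ± 0.40 (limma adjusted p = 3.2e-05), a value set by the pseudocount. All 8 largest rises stayed called with any 1 library left out, at adjusted p of at most 0.0061.

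The 10 loci that fell were low in level. XLOC_048540 had 0.237 FPKM in DMAG library 1 and a listed 0 in the other DMAG libraries, against 1.27, 0.883 and 0.805 FPKM in CTL (log2 change -2.83 ± 0.57, limma adjusted p = 0.014). XLOC_004922 had 0.222, 0.292 and 0.361 FPKM with DMAG, against 1.06, 1.02 and 1.21 FPKM in CTL (log2 change -1.62 ± 0.33, limma adjusted p = 0.014). In each of these loci the groups were apart and the CTL values close together. XLOC_056193 had 0.502, 0.483 and 0.511 FPKM with DMAG, against 1.35, 1.72 and 1.25 FPKM in CTL (log2 change -1.35 ± 0.27, limma adjusted p = 0.014).

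The other 5 named falls were XLOC_013843, XLOC_042348, XLOC_090347, XLOC_115001 and XLOC_071389. Their log2 changes ran from -2.35 to -1.36, with limma adjusted p between 0.017 and 0.048. The CTL means were 0.517 to 1.21 FPKM. The falls outside the naming rule were XLOC_106724, at 0.764 ± 0.256 FPKM with DMAG and 2.02 ± 0.193 FPKM in CTL (SD, n = 3 each), and XLOC_013221, listed at 0 with DMAG and at 0.472 ± 0.134 FPKM in CTL. Calls of falls were lost with a library of either group left out, most with CTL libraries. Of the 10, 0 remained called without CTL library 1, 0 without CTL library 2 and 1 without CTL library 3. The numbers were 4 without DMAG library 1, 5 without DMAG library 2 and 8 without DMAG library 3. All 10 kept their sign in each of these fits. Without CTL library 1 the adjusted p of XLOC_048540, XLOC_004922 and XLOC_056193 was 0.105, 0.0713 and 0.0610.

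Within loci of several transcripts, the sum was steadier than its parts. Of the 771 loci, 668 had 1 transcript, 59 had 2, and 44 had 3 or more. The 44 held 296 transcripts. In these 44 loci the median spread between libraries of a group was 0.38 on the log2 scale for the sum and 1.32 for the 291 transcripts tested. The transcript with the highest FPKM was not the same in all DMAG libraries in 24 of the 44 loci, and not the same in all CTL libraries in 26. Of the 101 loci that rose, 47 held no transcript that was called higher by itself. This count does not come from summing alone, as 70 of the 101 had 1 transcript, with the same values at both levels. Loci and transcripts were fitted and adjusted separately, so the same values can pass as a locus and miss as a transcript. XLOC_051945, of 1 transcript (LNC_002639), had a limma adjusted p of 0.036 as a locus and 0.066 as a transcript. The 76 transcripts that rose lay in 54 loci, and all of these loci rose as sums.

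In XLOC_071240 the leading transcript changed between libraries of a group. LNC_003422 had 1826, 221 and 2131 FPKM with DMAG, against 4.03, 0 and 3.60 FPKM in CTL. LNC_003423 was listed at 0 and had 3198 and 298 FPKM in DMAG libraries 1 to 3, against 2.24, 79.6 and 1.70 FPKM in CTL. The first held 97.1, 6.28 and 86.0% of the locus in DMAG libraries 1 to 3, and the other held 90.9% in DMAG library 2 and 76.7% in CTL library 2. LNC_003422 rose (log2 change 9.69 ± 1.48, limma adjusted p = 0.013), and its adjusted p was 0.0622 without DMAG library 1, 0.0561 without DMAG library 3 and 0.0609 with a pseudocount of 0.01. LNC_003423 did not pass (adjusted p = 0.66), nor did LNC_003425, with 55.2, 97.9 and 49.6 FPKM with DMAG, against 10.2, 21.5 and 12.1 FPKM in CTL (limma adjusted p = 0.069). LNC_003425 passed with a pseudocount of 1 (limma adjusted p = 0.0432), a filter at 0.5 FPKM (0.0292), libraries scaled to the same median (0.0421) or a joint fit with annotated transcripts (0.0329). Its groups did not overlap, and it held 2.00 to 2.93% of the locus with DMAG and 20.8 to 69.6% in CTL.

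In XLOC_000218, LNC_000058 held 62.4, 50.4 and 75.2% of the locus with DMAG and at most 5.24% in CTL. It had 2169, 2314 and 3365 FPKM with DMAG, against 0.0397, 7.50 and 0 FPKM in CTL, the largest change of any lincRNA transcript called (log2 change 12.40 ± 1.46, limma adjusted p = 0.0046). LNC_000063, LNC_000054, LNC_000055 and LNC_000059 also rose, by 3.28 to 9.72 on the log2 scale (limma adjusted p between 0.0073 and 0.024). The calls of LNC_000063 and LNC_000054 did not hold with any of 5 of the 6 libraries left out, with adjusted p of up to 0.10 and 0.116, both without CTL library 3. LNC_000055 lost its call without CTL library 3 (adjusted p = 0.0558), and LNC_000059 without CTL library 1 (0.0782) or CTL library 3 (0.0503).

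Other transcripts of XLOC_000218 appeared in 1 library or went the other way. LNC_000065 had 829.9 FPKM in DMAG library 2, a listed 0 in DMAG libraries 1 and 3, and 0, 0.840 and 0 FPKM in CTL. LNC_000069 was listed at 0 in DMAG libraries 1 and 2 and had 0.256 FPKM in DMAG library 3, against 25.9, 16.7 and 1.52 FPKM in CTL. It fell by 5.87 ± 0.98 on the log2 scale (limma adjusted p = 0.021), a call lost without CTL library 1 (adjusted p = 0.0949), CTL library 2 (0.10), DMAG library 1 (0.0874) or DMAG library 2 (0.0798). LNC_000056 had 17.3, 19.8 and 21.2 FPKM with DMAG, against 19.3, 10.9 and 12.6 FPKM in CTL, with overlap of the groups, while the locus as a whole rose. The remaining transcripts of the locus did not pass.

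The leading transcript of XLOC_000226 did not pass although its groups were far apart. LNC_000085 had 792, 731 and 753 FPKM with DMAG, against 31.9, 0.00222 and 29.5 FPKM in CTL. It made up 64.1 to 66.3% of the locus with DMAG, and 42.8, 0.00877 and 55.1% in CTL. CTL library 2 lay far below the other CTL libraries. The limma adjusted p was 0.11, with an adjusted p of 0.126 to 0.213 over the fits without 1 library, while with a pseudocount of 1 the transcript passed (adjusted p = 0.0415). LNC_000082 of the same locus had 127.5, 116 and 125 FPKM with DMAG, against 0.111, 0.148 and 0.860 FPKM in CTL, and rose (log2 change 8.38 ± 0.53, limma adjusted p = 0.00053). LNC_000084, LNC_000091 and LNC_000097 rose as well, by 4.26 to 7.61 on the log2 scale, although LNC_000097 passed only while DMAG libraries 1, 2 and 3 and CTL library 3 were all in the fit (adjusted p of up to 0.116 without CTL library 3).

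In XLOC_000227 the leading transcript was not the same in DMAG and CTL libraries. LNC_000102 had 477, 280.0 and 416 FPKM with DMAG, against 6.52, 8.85 and 0 FPKM in CTL, and rose (log2 change 7.72 ± 1.50, limma adjusted p = 0.042). That call was lost without CTL library 1 or any DMAG library, with adjusted p of 0.0782 to 0.120. LNC_000103 was listed at 0, 0.844 and 0 FPKM with DMAG, against 23.4, 0.00488 and 26.5 FPKM in CTL, where it held 58.6 and 75.9% of the locus in libraries 1 and 3. LNC_000105 had 484 FPKM in DMAG library 2, at most 0.189 FPKM in the other DMAG libraries and a listed 0 in CTL. LNC_000103 and LNC_000105 did not pass, and each was high in only some libraries of a group. Without CTL library 2 the adjusted p of LNC_000103 was 0.0169.

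In XLOC_000121 and XLOC_000125 the leading transcript changed between DMAG libraries. In XLOC_000121, LNC_000018 had 219, 243 and 825 FPKM with DMAG, against 2.49, 2.40 and 0.934 FPKM in CTL (log2 change 7.55 ± 0.64, limma adjusted p = 0.0011). LNC_000020 had 249, 146 and 216 FPKM with DMAG, against 2.06, 2.21 and 3.97 FPKM in CTL (log2 change 6.19 ± 0.44, limma adjusted p = 0.00053). Both stayed called with any library left out. LNC_000030 rose by 9.31 ± 1.55 (limma adjusted p = 0.020) and was not called without any of 5 of the 6 libraries (adjusted p 0.0673 to 0.113). In XLOC_000125, LNC_000040 had 104, 84.4 and 32.3 FPKM with DMAG, against 3.44, 0.0994 and 0.195 FPKM in CTL (log2 change 6.80 ± 0.99, limma adjusted p = 0.012), with an adjusted p of 0.0744 without CTL library 3, 0.0558 without DMAG library 1 and 0.0525 without DMAG library 2. LNC_000046 had 204 FPKM in DMAG library 2 and at most 1.53 FPKM in the other DMAG libraries, against 4.20, 4.98 and 4.15 FPKM in CTL, so that 1 library decided its direction.

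**Figure D4:**
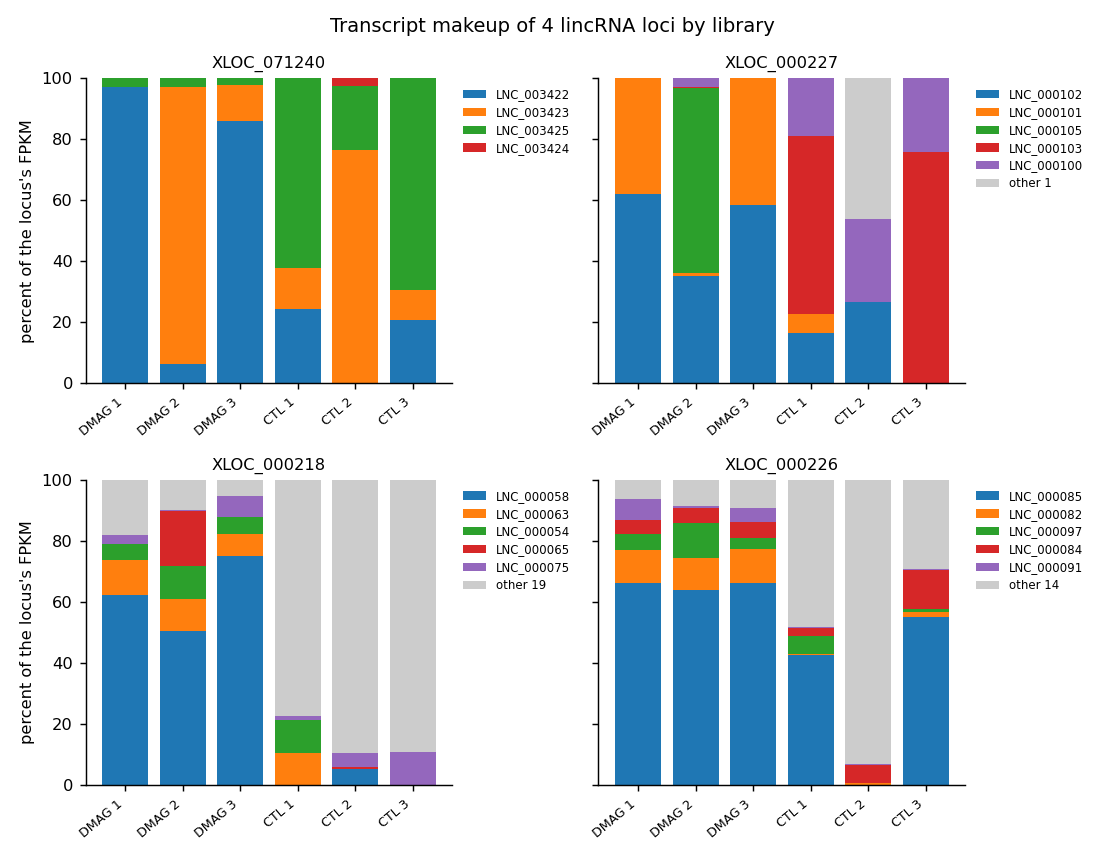
Percent of a locus's FPKM held by each transcript, per library, for 4 lincRNA loci with DMAG libraries left of CTL libraries. Each colour is a transcript and grey the remaining ones; the leading transcript changes between libraries of 1 group, as in XLOC_071240, where LNC_003422 held 97.1% in DMAG library 1 and LNC_003423 90.9% in DMAG library 2.

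Transcripts of opposite direction in 1 locus were seen in XLOC_000218 and XLOC_052021. In XLOC_052021, LNC_002649 had 11.6, 12.7 and 10.9 FPKM with DMAG, against 2.24, 2.17 and 2.36 FPKM in CTL (log2 change 2.33 ± 0.22, limma adjusted p = 0.0014). LNC_002652, LNC_002651 and LNC_002650 rose too, by 2.12 to 3.97. LNC_002653 had 0.0127, 0.0209 and 0.0120 FPKM with DMAG, against 1.50, 1.51 and 0.897 FPKM in CTL, and fell by 3.57 ± 0.43 (limma adjusted p = 0.0052). Without any 1 library its adjusted p stayed at or under 0.0486, and it was the only called fall of a transcript to do so. LNC_002650 lost its call in 5 of the 6 fits without 1 library, all but that without CTL library 2, with adjusted p of up to 0.116 without CTL library 3.

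The other transcripts that fell mostly lay in loci that did not. LNC_002238 of XLOC_048483 was listed at 0 in the DMAG libraries and had 0.894, 1.44 and 1.14 FPKM in CTL (log2 change -3.63 ± 0.46, limma adjusted p = 0.0054, but 0.0633 without CTL library 2 and 0.0513 without CTL library 3). Its locus as a whole had 4.39, 3.56 and 2.78 FPKM with DMAG, against 1.09, 1.46 and 1.65 FPKM in CTL, and rose by 1.29 ± 0.23 (limma adjusted p = 0.0080, and 0.0534 without CTL library 1). LNC_003403 of XLOC_070667 fell by 1.49 ± 0.30, and LNC_003431, the sole transcript of XLOC_071389, fell by 1.36 ± 0.27 (limma adjusted p = 0.048 and 0.046). The call of LNC_003403 was lost without any library but DMAG 3, and that of LNC_003431 without any library, both with adjusted p of up to 0.175 without CTL library 1.

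Some transcripts were listed in 1 group only. A level above 0 in the 3 DMAG libraries with a listed 0 in the 3 CTL libraries was seen for 21 transcripts, of which 6 passed the test, and the reverse for 7, of which 1 passed. That is 2.07% and 0.689% of the lincRNA transcripts tested, against 0.603% and 0.98% of all transcripts tested in the table. Among the 4132 intronic transcripts the counts were 11 and 45, and among the 159 antisense transcripts 0 and 0. A listed 0 can be a failed estimate, and these transcripts were low, with a median group mean of 0.519 FPKM in the 21 and 0.472 FPKM in the 7. LNC_005154 of XLOC_119607 had 1.22, 1.48 and 1.13 FPKM with DMAG. LNC_003723 of XLOC_079307 had 0.873, 0.757 and 0.966 FPKM with DMAG. LNC_000105, at a mean of 162 FPKM, was the exception in level, through DMAG library 2. A further 532 transcripts were above 0 in all 6 libraries, and 96 in 1 library only.

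Many loci that rose carried neighbouring XLOC numbers. The numbers come from the authors' assembly, and whether neighbours in number are neighbours on a chromosome was not examined. Runs of at least 5 lincRNA loci with gaps of at most 50 in number were formed after the values were seen, and the runs described were chosen from their results, so they are given without a test. There were 11 such runs. The 254 tested loci in runs included 71 that rose and 1 that fell, with a median log2 change of 0.63. The 459 tested loci outside runs included 30 that rose and 9 that fell, with a median of 0.29. Among all lincRNA loci tested, 14.2% rose and 1.40% fell, against 2.48% and 4.28% of all locus sums.

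A run of 46 loci ran from XLOC_051751 to XLOC_052054 with no fall among them, and no other type of unannotated lncRNA locus was numbered between them. All 46 had a positive log2 change, 36 rose and 0 fell, and in 39 the groups did not overlap. Over all locus sums tested, 2.48% were called higher, and in 6.47% every DMAG library lay above every CTL library. Over all lincRNA loci tested these shares were 14.2% and 29.3%. The changes were of like size, with a median of 2.31, quartiles of 2.04 and 2.64 and a range of 1.29 to 3.38. The run summed to 101, 99.4 and 112 FPKM with DMAG, against 18.5, 17.2 and 18.9 FPKM in CTL, 5.73 times as much. The last 20 loci in number order all rose. Of the 36, 19 stayed called with any 1 library left out.

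The replicates of 3 of its higher members lay close together. XLOC_052021 had 30.7, 30.1 and 29.9 FPKM with DMAG, against 6.39, 6.51 and 6.20 FPKM in CTL (log2 change 2.23 ± 0.17, limma adjusted p = 1.3e-05). XLOC_052029 had 9.69, 9.44 and 9.19 FPKM with DMAG, against 2.05, 1.91 and 1.81 FPKM in CTL (log2 change 2.24 ± 0.17). XLOC_052020 had 6.37, 5.86 and 6.97 FPKM with DMAG, against 1.31, 1.35 and 1.66 FPKM in CTL (log2 change 2.08 ± 0.19). None of the groups of these 3 loci overlapped. Other members spread more. XLOC_051911 had 3.52, 1.04 and 2.93 FPKM with DMAG, against 0.709, 0.838 and 0.872 FPKM in CTL (log2 change 1.36 ± 0.37, limma adjusted p = 0.049), and its adjusted p was 0.120 to 0.178 in each fit that left out a library other than DMAG 2. XLOC_051982 had 0.616, 1.09 and 2.23 FPKM with DMAG, against 0.277 FPKM in CTL library 1 and a listed 0 in the other CTL libraries. The 10 loci of the run that did not pass had means of 0.139 to 0.352 FPKM.

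**Figure D5:**
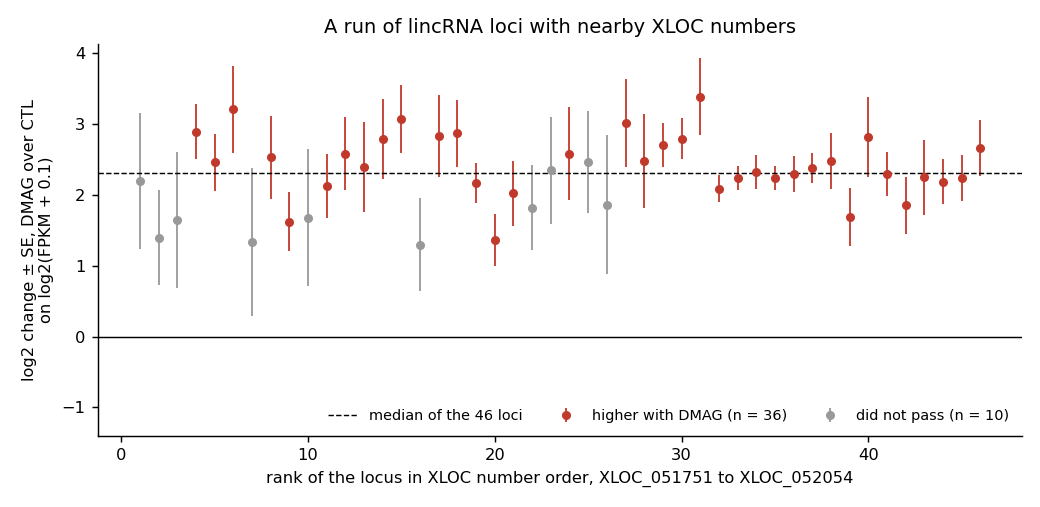
Log2 change ± SE (DMAG over CTL, on log2(FPKM + 0.1)) of the 46 lincRNA loci numbered XLOC_051751 to XLOC_052054, in number order. Points are coloured by limma call, 36 higher and 10 not passed, and the dashed line is the median of 2.31; all 46 lie above 0.

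A smaller run behaved alike. The 6 loci from XLOC_070238 to XLOC_070249 all rose, with a median log2 change of 2.87, and summed to 20.0, 22.01 and 18.4 FPKM with DMAG, against 2.82, 2.47 and 2.42 FPKM in CTL. Its highest member, XLOC_070246, had 8.72, 9.33 and 8.20 FPKM with DMAG, against 1.73, 1.54 and 1.11 FPKM in CTL (log2 change 2.52 ± 0.20, limma adjusted p = 1.5e-05). XLOC_070239, listed at 0 in CTL, belongs to it.

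The run with the lowest numbers was mixed. Among 35 loci from XLOC_000042 to XLOC_000359, of which 34 were tested, 10 rose and 0 fell, and the median log2 change was 0.22. The 5 abundant loci of this run are described above. The other 5 that rose were XLOC_000124, XLOC_000138, XLOC_000219, XLOC_000220 and XLOC_000229, by 1.58 to 3.69 on the log2 scale. XLOC_000124 had 168, 74.9 and 87.2 FPKM with DMAG, against 7.90, 9.15 and 6.88 FPKM in CTL. XLOC_000138 had 31.2, 29.7 and 31.3 FPKM with DMAG, against 4.68, 4.71 and 6.06 FPKM in CTL. The 24 tested loci of the run that did not pass had a mean of at most 2.28 FPKM over the 6 libraries, a mean that includes the DMAG values.

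The largest run, 127 loci from XLOC_048473 to XLOC_048609 with 282 transcripts, moved less. Of these, 107 had a positive log2 change, with a median of 0.53, and 18 rose and 1 fell. Among all lincRNA loci tested, 66.3% had a positive change, with a median of 0.44, and 14.2% rose. Rises were thus about as frequent in this run as among lincRNA loci in general. The run summed to 717, 651 and 683 FPKM with DMAG, against 433, 434 and 419 FPKM in CTL, 1.59 times as much. XLOC_048537 had 12.79, 12.96 and 12.5 FPKM with DMAG, against 6.99, 5.98 and 7.57 FPKM in CTL. It rose by 0.89 ± 0.17 (limma adjusted p = 0.012, but 0.0522 without CTL library 1, 0.0564 without CTL library 2 and 0.0508 without DMAG library 1). XLOC_048603 had 71.0, 56.0 and 74.1 FPKM with DMAG, against 48.7, 40.1 and 41.7 FPKM in CTL, and did not pass (log2 change 0.62 ± 0.24, limma adjusted p = 0.14, but 0.0125 with libraries scaled to the same median and 0.0488 with a filter at 0.5 FPKM). The other 7 runs held 1 locus that rose and 0 that fell.

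Outside the runs, XLOC_071240 was by far the highest locus that rose, and XLOC_072212 the most changed. XLOC_072202 had 90.7, 71.3 and 84.3 FPKM with DMAG, against 21.5, 10.7 and 12.1 FPKM in CTL (log2 change 2.53 ± 0.27, limma adjusted p = 0.00016). XLOC_071247 had 4.30, 6.15 and 6.49 FPKM with DMAG, against 0.539, 1.20 and 0.998 FPKM in CTL (log2 change 2.54 ± 0.28). XLOC_021024 had 2.71, 2.72 and 2.19 FPKM with DMAG, against 0.297, 0.338 and 0.288 FPKM in CTL (log2 change 2.69 ± 0.26). The groups were clearly apart in each of these loci. Among abundant loci, XLOC_021255 had 20.1, 12.3 and 26.5 FPKM with DMAG, against 43.9, 36.3 and 31.6 FPKM in CTL. Its groups did not overlap, but it did not pass (log2 change -0.98 ± 0.27, limma adjusted p = 0.053, but 0.0480 with a pseudocount of 1, 0.0430 with a filter at 0.5 FPKM and 0.0292 without DMAG library 3).

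Some mRNAs also differed between the same libraries, in both directions. Of 5 mitochondrial mRNAs, 3 were higher and 2 lower with DMAG (limma on log2(FPKM + 1) over 10394 mRNA genes, of which 22.4% were higher and 26.1% lower). MT-CYB, a subunit of respiratory complex III, averaged 549 ± 27.3 FPKM with DMAG and 16.2 ± 0.773 FPKM in CTL, while MT-CO1, a subunit of complex IV, averaged 3501 ± 138 FPKM with DMAG and 4178 ± 377 FPKM in CTL (SD, n = 3 each). All 5 ribosomal RNA processing genes examined were higher, with sums of 142 to 145 FPKM with DMAG and 6.39 to 10.4 FPKM in CTL. These lists were chosen with earlier results known. In bulk RNA, more cells of a type and more RNA per cell cannot be told apart, and the part of these differences in the lincRNA result was not tested.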

How the data were processed

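Only the RNA-Seq tables were used; those of circular RNAs and miRNAs were not analysed here. The authors deposited FPKM values per transcript, and per the submitters' processing notes HISAT2 2.0.4, Bowtie, StringTie 1.3.3 and GRCh38 were used, with no roles stated; per the labels' protocols a dUTP step marked the second strand. Whether strand was used in counting and how reads mapping to several places were treated is not given in the sources used here. Transcripts were tested with limma 3.58.1 (R 4.3.3; empirical Bayes with a mean trend) on log2(FPKM + 0.1), where the mean over libraries reached 0.1 FPKM, over all unannotated lncRNAs, with Benjamini-Hochberg adjustment and calls under 0.05. FPKM were also summed per locus and type and tested likewise. Library sums were compared by exact permutation (scipy 1.17.1). mRNA values were summed per gene and tested on log2(FPKM + 1) where the mean reached 0.5 FPKM. The steps were tested on simulated data. Named loci were the 8 largest rises and falls among called loci whose higher group reached 0.5 FPKM, and the 8 of highest mean; named transcripts were the 8 largest called rises and falls, the main transcripts of those loci and all transcripts of loci with calls in both directions. Loci named from the runs by number, XLOC_072202, XLOC_071247, XLOC_021024, XLOC_021255, XLOC_106724, XLOC_013221, XLOC_048483, XLOC_079307, XLOC_119607, XLOC_063457 and XLOC_072204 were chosen after their values were seen. The members and lists were chosen with earlier results of these data known. Alternatives were other pseudocounts, filters and scalings, a joint fit with annotated transcripts, leaving out each library, and a replicate block.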

Additional observations from a re-analysis of the deposited data

How the results depend on the processing

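The direction of the lincRNA result held under each alternative run: higher calls outnumbered lower ones in every fit. Counts of higher loci ranged from 54 to 79 with 1 library left out, against 101 with all, lowest without DMAG library 1 (54), then 59 without CTL library 1, 64 without CTL library 2, 65 without DMAG library 2, 67 without CTL library 3 and 79 without DMAG library 3; all loci called ranged from 59 to 91, against 111. Higher transcripts ranged from 48 (DMAG library 1 left out; 49 for DMAG library 2) to 70, against 76, and all transcripts called from 53 to 72, against 81. With a pseudocount of 0.01, 73 loci and 59 transcripts were higher, and the calls of LNC_000030, LNC_000054, LNC_000063, LNC_000097, LNC_000102, LNC_002650 and LNC_003422 were lost (limma adjusted p 0.0563 to 0.124). Of the calls, 48 of 101 higher loci, 35 of 76 higher transcripts, 1 of 5 lower transcripts and 0 of 10 lower loci were kept with every library left out in turn, and all kept their sign. Lower transcripts, 5 in the report, numbered 3 with libraries scaled to the same median, 3 when divided by the mRNA total, 8 when fitted with annotated lncRNA and mRNA transcripts, and 2 to 8 with 1 library left out. Lower loci, 10 in the report, numbered 5 with a pseudocount of 0.01 and 14 with a pseudocount of 1. They numbered 3 with the same median, 7 when divided by the mRNA total, and 0 to 12 with 1 library left out. The causes were not tested, though fewer samples enter a fit without a library. Without DMAG library 2, LNC_000046 had a log2 change of -2.03 (limma adjusted p = 0.044), against 0.48 with all libraries and up to 2.01 without another library. The difference in summed FPKM was 3.24 to 3.43 on the log2 scale with 1 library left out. Libraries with the same replicate number showed almost no correlation of their deviations over 5307 transcripts (0.0017, 0.0080 and -0.0035). Such correlations cannot show whether the samples were prepared in pairs. With the replicate numbers as a block, 64 transcripts were higher and 3 lower, and 102 loci higher and 12 lower. The log2 difference in summed FPKM was then 3.32 with an exact permutation p of 0.25, the smallest that 3 pairs of libraries allow. Values near 0.1 FPKM rest on an unknown number of reads, which limits what low loci can show.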

Other observations

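Some lincRNA loci differed more between libraries of a group than between groups, such as the following, and such loci were not counted. XLOC_063457, with 4 transcripts, had a listed 0, 23.6 and 6.07 FPKM in DMAG libraries 1 to 3, against a listed 0, 0.0582 and 47.6 FPKM in CTL libraries 1 to 3, and did not pass (limma adjusted p = 0.70). XLOC_072204, of 1 transcript, had 0.0167, 7.86 and 6.10 FPKM with DMAG, against 2.27, 4.34 and a listed 0 FPKM in CTL. HBB, the beta-globin mRNA, was likewise at 1367 FPKM in DMAG library 3 and at most 0.0731 FPKM in the other 5 libraries.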
